A study of Homo sapiens with 2 samples.

Results

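The mitochondrial protein import machinery and the MICOS genes were described in NB4 cells, a human APL line with the PML/RARα fusion, after knockdown of the lncRNA CRNDE. The genes were chosen by symbol, namely all numbered TIMM, TOMM, CHCHD, GRPEL and MTX genes together with TIMMDC1, TOMM40L, PMPCA, PMPCB, SAMM50, IMMT, PAM16, DNAJC19 and APOO. This rule found 43 of the 11619 genes listed, which is 0.370% of them. The cells carried a lentiviral CRNDE shRNA (sh-CRNDE) or a non-targeting shRNA from the same kind of vector (sh-Control), and RNA was taken at day 3. There was 1 library per group, so the differences below have no measure of replicate error and carry no p-values. The labels do not say which CRNDE shRNA the sequenced cells carried.

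Nearly all mitochondrial proteins are encoded in the nucleus, made in the cytosol and imported. The TOM complex of the outer membrane is the entry gate, TIM23 with its ATP-driven motor takes proteins with a cleavable presequence into the matrix, TIM22 with the small TIM chaperones delivers carriers to the inner membrane, and the SAM complex with the metaxins inserts barrel proteins into the outer membrane. MICOS holds the junctions at which the cristae of the inner membrane meet its boundary, and many proteins with a CHCHD domain are folded in the intermembrane space through disulfide bonds.

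All 43 genes had a value above 0 in both libraries. Values are FPKM, in which fragments are divided by transcript length and by the mapped total, so that levels of different genes can be set side by side. The difference of a gene is the log2(FPKM + 1) of sh-CRNDE minus that of sh-Control, which understates the change of low genes, and 1.5-fold, or 0.585 on this scale, was taken as the threshold. The read depth is unknown, since FPKM values keep no counts. CRNDE itself was at 5.92 FPKM in sh-Control against 1.85 in sh-CRNDE, a difference of -1.28. Of 8 myeloid marker genes, 7 were listed, and their FPKM summed to 2172 in sh-Control and 978 in sh-CRNDE. ELANE, the neutrophil elastase gene, was the marker not listed. None of 5 erythroid markers was listed, and the listed T cell, B cell and epithelial markers each summed to under 5 FPKM. The part of the lower myeloid marker level in the values below was not tested. MT-RNR2, a mitochondrial rRNA, was listed at 0 in sh-Control and made up 16.2% of the summed FPKM of sh-CRNDE.

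The import and MICOS genes did not move as a block. Of the 43 genes, 11 were past 1.5-fold (25.6%), against 17.2% of all listed genes. Higher past 1.5-fold in sh-CRNDE were 5 genes (11.6%, against 8.38% of all genes), TIMM8A, TOMM6, TOMM34, TIMM8B and TIMM10. Lower past it were 6 genes (14.0%, against 8.83% of all genes), TOMM20, TOMM22, TIMM10B, CHCHD3, CHCHD10 and TOMM40. The median difference of the 43 genes was 0.04, beside -0.01 over all genes, and the middle of their distribution, from the 25th to the 75th percentile, ran from -0.26 to 0.22. Their summed FPKM was 1037 in sh-Control and 1026 in sh-CRNDE. When both libraries had to reach 1 FPKM, 10 of 42 import and MICOS genes were past 1.5-fold (23.8%), against 14.1% of all such genes. The gene left out by that filter is TIMM8A, at 0.769 FPKM in sh-Control.

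**Figure D1:**
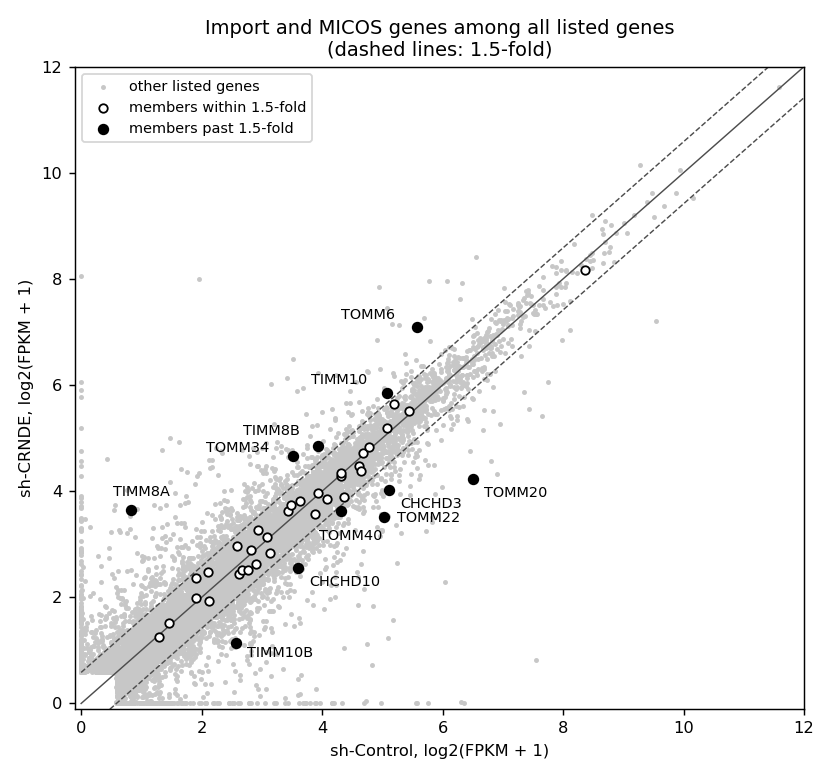
log2(FPKM + 1) in sh-Control (horizontal) and sh-CRNDE (vertical) for all listed genes (grey) except MT-RNR2, which lies outside the axes, with the 43 import and MICOS genes on top. The 11 filled points lie beyond the dashed 1.5-fold lines and the 32 open points between them.

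In the TOM complex, genes past 1.5-fold lay in opposite directions, with 3 of 8 lower, 1 higher and 4 within. Over all genes, 8.83% were lower and 8.38% higher past it, and with 8 genes the counts are a description of the group. The TOM complex consists of the pore TOMM40, the receptors TOMM20, TOMM22 and TOMM70, and the small subunits TOMM5, TOMM6 and TOMM7. TOMM20, which binds presequences, was at 90.2 FPKM in sh-Control against 17.7 in sh-CRNDE, a 5.09-fold lower level and a difference of -2.28. Of all genes, 0.594% had a lower difference. It was the member with the second highest level in sh-Control and ranked 15 in sh-CRNDE. TOMM22, the central receptor that docks the others to the pore, was at 31.7 FPKM in sh-Control against 10.4 in sh-CRNDE, a difference of -1.52. TOMM40 was at 18.9 FPKM and 11.4 FPKM, a difference of -0.68. The receptors TOMM20 and TOMM22 and the pore were lower past 1.5-fold in sh-CRNDE, but TOMM40 was within it after subtraction of the GC trend (-0.42), which leaves 2 of the 8 TOM genes lower past it. TOMM6, a small subunit that stabilizes the complex, was at 46.9 FPKM in sh-Control against 136 in sh-CRNDE, a 2.91-fold higher level and a difference of 1.52. The other TOM genes were within 1.5-fold. TOMM70A, the receptor for carrier precursors now named TOMM70, was at 32.8 FPKM in sh-Control against 35.3 in sh-CRNDE. TOMM7 was at 26.5 and 27.3 FPKM, TOMM5 at 11.4 and 13.0 FPKM, and TOMM40L, a paralogue of the pore, at 5.12 and 4.39 FPKM. The 8 TOM genes summed to 264 FPKM in sh-Control against 256 in sh-CRNDE, nearly the same sum from unlike shares of its subunits. TOMM34, a cytosolic co-chaperone of precursor proteins despite its name, was at 10.4 FPKM in sh-Control against 24.5 in sh-CRNDE, a difference of 1.16.

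These genes lie apart in the genome (GRCh38, GENCODE). TOMM20 is on chromosome 1 from 235109341 to 235128837, minus strand, TOMM22 on chromosome 22 from 38681957 to 38685421, plus strand, and TOMM40 on chromosome 19 from 44890569 to 44903689, plus strand. TOMM6 is on chromosome 6 from 41787662 to 41789898, plus strand, and TOMM34 on chromosome 20 from 44942130 to 44960397, minus strand. The canonical TOMM6 transcript has 565 nt and 3 exons, all of it shared with exons of a longer gene on the same strand, ENSG00000124593, which was itself listed at 0.910 FPKM in sh-Control against 0.704 in sh-CRNDE. Named pseudogenes, which can take reads of the parent gene, are annotated for TOMM20 (4), TOMM22 (6) and TOMM40 (4), and of these only TOMM40P4 was listed, at 0 in sh-Control against 0.583 FPKM for sh-CRNDE. Other members have them too, among them CHCHD2 (10), APOO (5), CHCHD4 (4), CHCHD3 (3), TIMM8B (2) and TIMM8A (1). None of the pseudogenes of these genes was listed. DNAJC19 has 9, of which DNAJC19P9 was listed at 0.684 FPKM in sh-Control against 1.07 in sh-CRNDE. Exons of another gene on the same strand cover 83.1% of the canonical PAM16 transcript, 73.7% of TOMM5, 31.4% of TIMM23B and 14.2% of TIMM10B. SAMM50 followed at 8.75%. The deposited values do not show how shared reads were assigned.

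The promoters of 4 genes of contrasting behaviour are shown, TOMM20 and TOMM22 as the TOM receptors that were lower, TOMM6 as the TOM subunit that was higher, and TIMM8A as the member with the highest difference. They are RefSeq promoters on GRCh38.p14, from 250 bases before to 50 after the annotated start, written 5′ to 3′ on the gene's strand. Capitals mark matches on either strand to the NRF1 motif, CCGGAAG (ETS factors such as GABPA), CACGTG (E-box) and AAGATGGCG (YY1), of which NRF1, GABPA and YY1 motifs are known from promoters of mitochondrial genes.
TOMM20, chr1:235128788-235129087, minus strand: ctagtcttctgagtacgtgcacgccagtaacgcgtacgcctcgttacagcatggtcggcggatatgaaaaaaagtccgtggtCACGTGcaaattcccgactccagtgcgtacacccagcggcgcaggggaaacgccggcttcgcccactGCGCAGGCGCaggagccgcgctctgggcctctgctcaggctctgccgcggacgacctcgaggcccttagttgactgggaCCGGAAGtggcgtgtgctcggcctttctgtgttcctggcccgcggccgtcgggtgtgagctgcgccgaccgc
TOMM22, chr22:38681707-38682006, plus strand: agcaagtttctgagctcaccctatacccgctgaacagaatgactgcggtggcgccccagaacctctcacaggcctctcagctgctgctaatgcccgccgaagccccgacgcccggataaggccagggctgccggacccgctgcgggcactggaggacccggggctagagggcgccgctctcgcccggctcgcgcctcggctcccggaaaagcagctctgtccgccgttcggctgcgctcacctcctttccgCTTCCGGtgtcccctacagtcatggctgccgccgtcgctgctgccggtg
TOMM6, chr6:41787444-41787743, plus strand: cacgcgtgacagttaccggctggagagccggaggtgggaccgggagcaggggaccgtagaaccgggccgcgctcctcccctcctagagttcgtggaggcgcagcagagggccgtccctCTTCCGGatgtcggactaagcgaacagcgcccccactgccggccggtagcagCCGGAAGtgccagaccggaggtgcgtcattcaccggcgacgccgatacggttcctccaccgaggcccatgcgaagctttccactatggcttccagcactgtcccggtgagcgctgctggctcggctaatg
TIMM8A, chrX:101348693-101348992, minus strand: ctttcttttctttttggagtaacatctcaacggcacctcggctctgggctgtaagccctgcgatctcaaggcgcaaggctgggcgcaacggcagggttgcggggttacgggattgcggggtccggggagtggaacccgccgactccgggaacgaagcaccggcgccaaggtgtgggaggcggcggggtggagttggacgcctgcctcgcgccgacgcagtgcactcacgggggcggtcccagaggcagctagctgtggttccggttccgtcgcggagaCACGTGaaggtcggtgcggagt

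TOMM20 holds an ETS match that begins 22 bases before the start, an NRF1 match at 101 bases and an E-box at 168 bases before it. TOMM6 has ETS matches at 80 and 132 bases before the start, TOMM22 has a match 1 base after it, and TIMM8A has only an E-box, 28 bases after it. A promoter was found for 39 of the 43 genes, with TOMM5, CHCHD7, GRPEL1 and TIMM8B not matched. The ETS letters were in 18 of the 39 (46.2%), against 24.9% of the 8488 listed genes with a promoter and 12.2% of all 27305 genes with one. They were found in genes of either direction, in 3 of 4 genes higher past 1.5-fold, 3 of 6 lower past it and 12 of 29 within it. The NRF1 motif were in 8 of 39 (20.5%, against 14.8% of listed genes and 6.98% of all), the YY1 letters in 3 of 39 (7.69%, against 5.35% and 2.14%) and the E-box in 3 of 39 (7.69%, against 13.2% and 8.77%). The 3 genes with an E-box were TOMM20, TIMM8A and TIMM10. No matches of different motifs overlapped in these promoters. The matches are a description of letters and were not tested for use.

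Of the 7 genes of the TIM22 pathway and its chaperones, 3 were higher past 1.5-fold and 1 lower, beside 8.38% higher and 8.83% lower over all genes. With so few genes, these counts are a description of the group. The small TIM proteins are paired chaperones that carry hydrophobic precursors across the intermembrane space, TIMM9 with TIMM10 and TIMM8A with TIMM13. TIMM8A, the gene of deafness-dystonia syndrome, was at 0.769 FPKM in sh-Control against 11.4 in sh-CRNDE, a 14.9-fold higher level. Its difference of 2.81 was above that of 99.6% of all genes. TIMM8B, its paralogue, was at 14.3 FPKM in sh-Control against 27.9 in sh-CRNDE, a difference of 0.91. The paralogues together reached 15.1 FPKM in sh-Control against 39.3 in sh-CRNDE. TIMM10 was at 32.7 and 57.0 FPKM, a difference of 0.78. Their partners were within 1.5-fold, TIMM9 at 9.84 FPKM in sh-Control against 11.3 in sh-CRNDE, and TIMM13 at 23.6 and 21.1 FPKM. TIMM10B, the small TIM that anchors the chaperones at TIM22, was lower instead, at 4.94 FPKM in sh-Control against 1.21 in sh-CRNDE, a difference of -1.43. TIMM22, the carrier translocase itself, was at 5.79 and 4.69 FPKM. The 7 genes of this group summed to 91.9 FPKM in sh-Control against 135 in sh-CRNDE.

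TIMM8A is on chromosome X from 101345661 to 101348742, TIMM8B on chromosome 11 from 112084800 to 112086798, TIMM10 on chromosome 11 from 57528464 to 57530803, all on the minus strand, and TIMM10B on chromosome 11 from 6481501 to 6484681, plus strand. Of the TIMM8B transcript, 45.0% lies opposite exons of NKAPD1 (C11orf57 in the files), which was at 10.1 FPKM in sh-Control against 3.41 in sh-CRNDE. The TruSeq RNA kit named for the libraries does not mark strand, so reads of such an overlap could fall to either gene. The part of this overlap in the TIMM8B difference was not tested. Some import genes share a start region with a gene on the other strand. TIMM8B starts 26 bases from SDHD, a complex II subunit, which was at 49.99 FPKM in sh-Control against 45.5 in sh-CRNDE, a difference of -0.13. TIMM10B starts 22 bases from ARFIP2, which was at 3.91 and 4.87 FPKM, a difference of 0.26. TIMM8B and TIMM10B were past 1.5-fold and SDHD and ARFIP2 were not. A second neighbour of TIMM8B, ENSG00000255292 at 105 bases, had a listed value of 0 for sh-Control against 0.562 FPKM for sh-CRNDE, a difference of 0.64. Every listed gene reached 0.5 FPKM in a library, so a gene at 0 in the other had to pass 1.5-fold. Its passing is therefore not read as a result. At PMPCA with ENTR1, TIMM9 with KIAA0586 and TOMM70A with LNP1, neither gene was past 1.5-fold. At CHCHD4 it was the neighbour TMEM43, 145 bases away, that was past it, at 6.79 FPKM in sh-Control against 13.2 in sh-CRNDE.

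The 6 TIM23 genes chosen by the rule were all within 1.5-fold, as were the 5 motor genes and the peptidase genes. Over all genes 17.2% were past it, so groups this small are too few to read this as a result. TIM23 is built of the channel proteins TIMM23 and TIMM17A or TIMM17B, the receptor TIMM50 and the coupling subunit TIMM21. TIMM23 was at 42.3 FPKM in sh-Control against 44.5 in sh-CRNDE. TIMM23B, a near-identical copy on the same chromosome, was at 2.75 and 2.97 FPKM, and reads can be split between the copies. Their sum was 45.0 FPKM in sh-Control and 47.5 in sh-CRNDE. The canonical transcripts differ in length (1190 nt for TIMM23 and 2495 nt for TIMM23B), so the sum of FPKM also depends on that split. TIMM17A was at 24.0 and 19.9 FPKM, TIMM17B at 13.7 and 10.8 FPKM, TIMM50 at 7.80 and 6.13 FPKM, and TIMM21 at 3.37 and 2.79 FPKM. These last 4 genes were all lower in sh-CRNDE, with differences from -0.31 to -0.20. The median of the 6 TIM23 genes was -0.23.

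In the import motor, the matrix Hsp70 pulls the precursor in, TIMM44 tethers it to the channel, DNAJC19 and PAM16 are its J-protein and the J-like regulator, and the GRPEL proteins exchange its nucleotide. TIMM44 was at 19.6 FPKM in sh-Control against 13.9 in sh-CRNDE, a difference of -0.47, and PAM16 at 6.49 and 5.17 FPKM. DNAJC19 (4.99 and 6.86 FPKM), GRPEL1 (6.67 and 8.70 FPKM) and GRPEL2 (10.2 and 12.4 FPKM) were higher in sh-CRNDE, with differences of 0.39, 0.34 and 0.26. None passed the threshold. HSPA9, the Hsp70 itself, was not chosen by the rule and was at 142 FPKM in sh-Control against 171 in sh-CRNDE, a difference of 0.26. PMPCA and PMPCB, the subunits of the peptidase that removes presequences, were at 15.9 and 13.5 FPKM and at 14.2 and 14.7 FPKM. Of the canonical PMPCB transcript, 20.8% lies opposite exons of DNAJC2, which was at 13.3 FPKM in sh-Control against 21.5 in sh-CRNDE.

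At the outer membrane sorting machinery, SAMM50 (7.51 and 7.76 FPKM), MTX2 (18.9 and 19.3 FPKM) and MTX1 (5.40 and 4.70 FPKM) had differences from -0.17 to 0.04. The MTX1 pseudogene MTX1P1 was listed at nearly the level of its parent, at 4.85 FPKM in sh-Control against 4.25 in sh-CRNDE, and how reads were split between them is not shown by the values.

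Of the MICOS genes, CHCHD3 was past 1.5-fold. CHCHD3 (MIC19), which joins MICOS to the outer membrane SAM complex, was at 33.5 FPKM in sh-Control against 15.3 in sh-CRNDE, a difference of -1.08 (chromosome 7, 132784870 to 133082090, minus strand). IMMT (MIC60), the core subunit, was at 35.7 FPKM in sh-Control against 48.7 in sh-CRNDE, a difference of 0.44. APOO (MIC26) was at 6.03 and 6.42 FPKM, and CHCHD6 (MIC25), the paralogue of CHCHD3, at 1.75 and 1.87 FPKM. The paralogue was thus at a level far below that of CHCHD3 in both libraries.

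CHCHD4, the oxidoreductase that introduces disulfide bonds in the intermembrane space, was at 3.29 FPKM in sh-Control against 4.56 in sh-CRNDE, a difference of 0.37. CHCHD2, a stress-responsive regulator of respiration, had the highest level of all 43 genes, at 328 FPKM in sh-Control against 286 in sh-CRNDE, and made up 31.7% and 27.9% of the summed FPKM of the group. CHCHD10, the paralogue of CHCHD2 and a gene of motor neuron disease, was at 11.2 FPKM in sh-Control against 4.90 in sh-CRNDE, a difference of -1.05 (chromosome 22, 23765834 to 23767972, minus strand). CHCHD1, a mitoribosome subunit, was at 24.6 and 25.3 FPKM, CHCHD5 at 1.46 and 1.40 FPKM, and CHCHD7 at 2.73 and 4.13 FPKM, a difference of 0.46. TIMMDC1, an assembly factor of complex I, was at 18.8 FPKM in sh-Control against 18.4 in sh-CRNDE.

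Ratios of partner and paralogous genes within a library do not depend on the scaling between libraries. They are made of the same FPKM values as the differences above and are no further evidence for them. The ratio of TIMM8A to its partner TIMM13 was 0.0326 in sh-Control and 0.542 in sh-CRNDE, a 16.6-fold gap between the libraries. This gap rests on a low value, TIMM8A at 0.769 FPKM in sh-Control, and no pseudocount was added. The ratio of TOMM6 to TOMM20 was 0.519 in sh-Control and 7.68 in sh-CRNDE, a 14.8-fold gap. TOMM20 stood at 2.75 times the level of TOMM70A, a receptor within 1.5-fold, in sh-Control and at 0.502 times in sh-CRNDE. The order turned over between the libraries for TOMM6 and TOMM20 and for TOMM20 and TOMM70A, while TIMM8A was below TIMM13 in both. IMMT and CHCHD3 were nearly level in sh-Control, at a ratio of 1.06, and at 3.17 in sh-CRNDE. The ratio of CHCHD2 to CHCHD10 was 29.4 and 58.5. At the other end, TIMM17A to TIMM17B (1.75 and 1.83), GRPEL1 to GRPEL2 (0.654 and 0.702) and TIMM23 to TIMM23B (15.4 and 15.0) differed by less than 1.1-fold between the libraries. The ratio of PMPCB to PMPCA was 0.893 and 1.08.

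**Figure D2:**
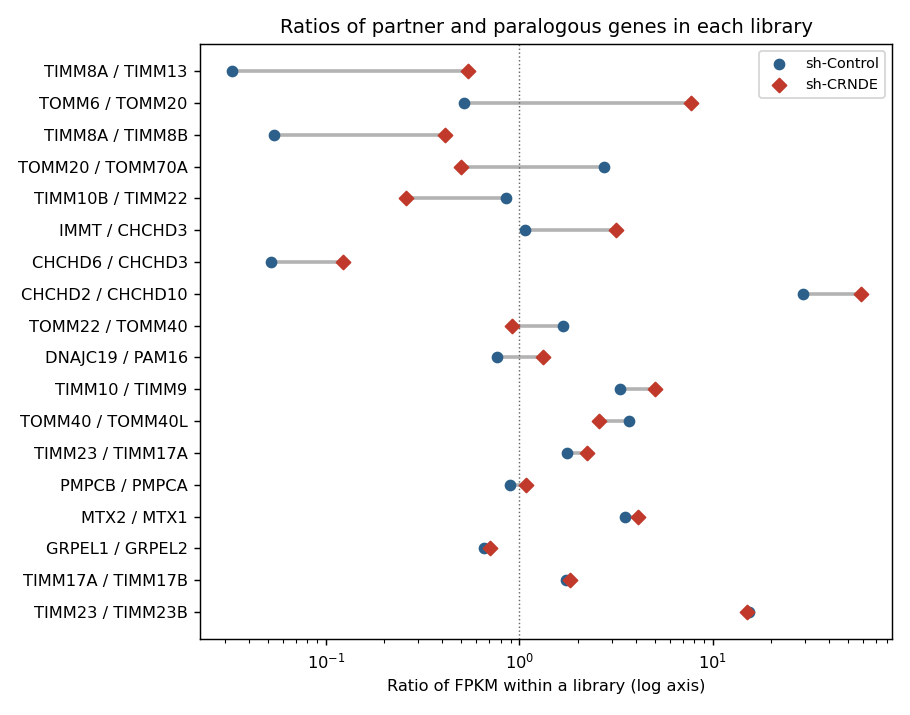
Ratio of FPKM of 2 genes within a library, on a log axis, in sh-Control (blue circles) and sh-CRNDE (red diamonds), ordered by the gap between the libraries. TIMM8A to TIMM13 and TOMM6 to TOMM20 are farthest apart, at 16.6-fold and 14.8-fold, and TIMM23 to TIMM23B, TIMM17A to TIMM17B and GRPEL1 to GRPEL2 almost coincide. TIMM8A was at only 0.769 FPKM in sh-Control.

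Genes of the same pathways that the rule does not name were read from lists. Of 25 related genes (chaperones, other peptidases, insertases, remaining MICOS subunits and cristae factors), 4 were lower past 1.5-fold in sh-CRNDE (8.83% of all genes were) and 0 higher (8.38% of all genes were), with a median difference of 0.12. With so few genes, these counts are a description of the list. The 4 genes were ROMO1 (38.0 FPKM in sh-Control against 14.4 in sh-CRNDE), a small inner membrane subunit of TIM23, MTCH1 (22.9 and 11.9 FPKM), an outer membrane protein of the insertase family, C19orf70 (10.2 and 5.51 FPKM), the MICOS subunit MIC13, and DNLZ (1.77 and 0.725 FPKM), a partner of the matrix Hsp70. After subtraction of the median difference of genes with like GC content, C19orf70 (-0.52) and DNLZ (-0.33) were within 1.5-fold. The other MICOS subunit gene outside the rule that was listed under an older symbol, MINOS1, was at 15.0 and 19.1 FPKM. Of 14 further proteins of the twin CX9C type, a common client fold of CHCHD4, 3 were higher past 1.5-fold, the complex I subunits NDUFS5 (129 and 228 FPKM) and NDUFA8 (26.2 and 43.8 FPKM) and the complex IV assembly factor COA4 (3.81 and 18.8 FPKM). TRIAP1, which acts in mitochondrial lipid transfer, was lower past it (33.1 and 1.36 FPKM), and the remaining 10 were within 1.5-fold, beside the same 8.38% higher and 8.83% lower over all genes.

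The study also dealt with miR-181, which gave a question on 3′ UTRs. The 4 miR-181 RNAs share their seed, shown in capitals (bases 2 to 8 from the 5′ end, RefSeq):
hsa-miR-181a-5p: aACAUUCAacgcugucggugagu
hsa-miR-181b-5p: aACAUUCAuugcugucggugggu
hsa-miR-181c-5p: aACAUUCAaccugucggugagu
hsa-miR-181d-5p: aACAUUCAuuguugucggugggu

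A match to the seed, TGAATGT, was found in the canonical 3′ UTR of 6 of the 43 genes (14.0%), against 21.5% of 9952 listed protein-coding genes with a 3′ UTR, and the 3′ UTRs had a median of 542 nt in the import and MICOS genes and 1278 nt in all. The genes were GRPEL1, MTX2, TIMM17A, CHCHD7, TIMM22 and APOO. Of the 6 genes, 0 were past 1.5-fold, and their median difference was 0.05 beside 0.04 in the other 37. Of the 2141 listed genes with the match, 190 were higher and 146 lower past 1.5-fold. Over all 11619 listed genes, a wider set than the 9952 genes searched for the match, 974 were higher (8.38%) and 1026 lower (8.83%). The median difference was 0.05 in genes with the match beside -0.03 in those without it, and the part of GC content in this gap was not tested. With 17.2% of all genes past 1.5-fold, 6 genes are too few to read a count of 0 as a result. The sites of 3 of these genes, chosen to show both directions, are given with their flanks (GENCODE transcripts, match in capitals). CHCHD7, whose site is not shown, had the highest difference of the 6 genes, 0.46.
TIMM17A: atgtactgtttTGAATGTgttccaagtcc
TIMM22: ttttcttggaaTGAATGTgagttcctgct
GRPEL1: actcatttctgTGAATGTttgcagtctcc

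TIMM17A and TIMM22 had differences of -0.26 and GRPEL1 of 0.34, so genes with a match lay on either side of 0.

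Properties of the transcripts were set beside the differences across genes, which share one pair of libraries and are not independent. Across the 43 genes, Spearman's rho between GC content and the difference was -0.34, and across 11508 annotated genes it was -0.39. The median GC content was 48.1% in the 5 genes higher past 1.5-fold, 46.9% in the 6 lower past it and 47.4% in the 32 within it. The genes higher past 1.5-fold had canonical transcripts with a median of 780 nt, and those lower past it a median of 1900 nt, with ranges that overlap (565 to 1973 nt and 700 to 3283 nt). Their rho with transcript length was -0.20 over the 43 genes and 0.02 over all annotated genes. The part of GC content and length in the differences was not tested beyond the subtraction of the GC trend, after which 10 of the 11 genes were still past 1.5-fold in the same direction. The exception was TOMM40, at -0.42.

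**Figure D3:**
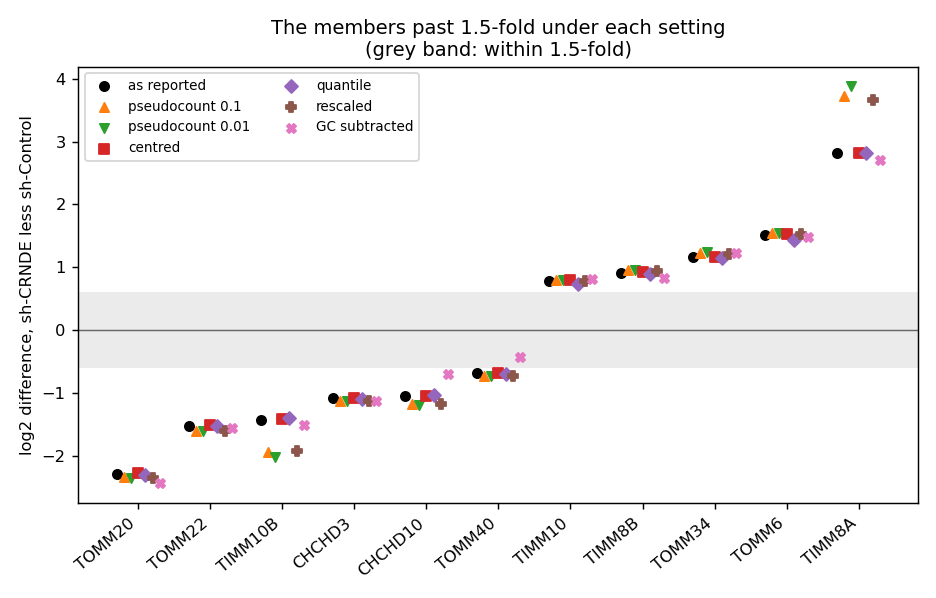
Difference in log2 value, sh-CRNDE less sh-Control, of the 11 genes past 1.5-fold as reported (black) and under 6 other settings (colours). Each gene keeps its side of 0 and stays outside the grey 1.5-fold band, except TOMM40 after GC subtraction, at -0.42; TIMM8A and TIMM10B, the lowest in level, spread most.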

How the data were processed

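RNA-seq of NB4 cells was available as 2 tables, 1 for sh-CRNDE and 1 for sh-Control. The authors deposited FPKM per gene; the submitters' processing notes name fastp 0.20.0, HISAT2 2.0.4, StringTie 1.2.3 and GRCh38, and the library kit was TruSeq RNA. Every listed gene reached 0.5 FPKM in a library, so genes low in both are missing and genes at 0 in a library had to differ. Tables were joined by Ensembl identifier, and groups came from the treatment labels.

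log2(FPKM + 1) was compared without further scaling. The threshold of 1.5-fold is the fold change given in the study. With 1 library per group no test was run. All members were named; of other genes CRNDE, members of 2 lists past 1.5-fold, and genes that overlap, adjoin or work with a member, chosen after their values were seen. Members, lists, motifs and ratios were chosen with earlier results of these data known. Coordinates and canonical transcripts are from GENCODE 44 (GRCh38; 11508 of 11619 identifiers matched), and promoters are from RefSeq. Alternatives were other pseudocounts, median centring, quantile normalization and rescaling without mitochondrial and small RNA genes. Further alternatives were subtraction of the median over 20 bins of GC content, filters and a 2-fold threshold. Python 3.11.15, numpy 2.4.6, pandas 2.3.3, scipy 1.17.1 and matplotlib 3.10.9 were used.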

Additional observations from a re-analysis of the deposited data

How the results depend on the processing

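With 1 library per group, the spread between replicates is unknown and no alternative can stand in for it. The count of import and MICOS genes past 1.5-fold was 11 as reported, and from 10 to 12 under other pseudocounts, scalings, filters and GC subtraction, with 8 genes past 2-fold. CHCHD7 passed 1.5-fold with a pseudocount of 0.01 (0.60), and TOMM40 did not after GC subtraction (-0.42). The other 41 genes kept their side of the threshold under all 6 settings for a single gene. TIMM8A ranged from 2.70 to 3.88 and TIMM10B from -2.02 to -1.40 over these settings, the widest ranges among the 11 genes. GC subtraction turned the sign of 7 genes within 1.5-fold. The median difference of the 43 genes stayed between 0.01 and 0.05. Over all genes, the count past 1.5-fold was 2000 as reported, 3301 with a pseudocount of 0.1, 3481 with 0.01, 3133 after rescaling to a sum of 1000000, 1239 when both libraries had to reach 1 FPKM, and 774 past 2-fold. Rescaling multiplies the values before the pseudocount of 1 is added, so that low genes are damped less. No paired analysis was possible because each group has 1 library.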
